A study of Mus musculus with 27 samples.

Results

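The regional patterning factors of the early mouse brain were examined in E8.5 embryos with and without DNMT3B. The 10 genes are Sox1, Sox2, Sox3, Pax6, Otx2, Six3, En1, En2, Gbx2 and Egr2. They were chosen with earlier results of these data known, and were matched by gene symbol to the 24065 genes of the RNA-Seq count table. All 10 were found and all 10 had enough reads to be tested. Whole littermate embryos of the C57BL/6J background were collected at E8.5, 3 WT and 3 Dnmt3b-/-, and each embryo gave 1 library. The mutant embryos had catalytic activity removed from both Dnmt3b alleles and came from matings of heterozygous mice. These alleles were made by crossing a loxP-flanked line, Dnmt3b-2lox, with mice in which an actin promoter drives Cre in the whole body, so the gene was inactive in every tissue and not in the brain alone. The 6 RNA libraries are part of a series of 27 samples, most of which hold maps of DNA methylation and are not analysed here.

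Brain patterning begins in the neural plate, where the SoxB1 proteins SOX1, SOX2 and SOX3 keep cells in a neural progenitor state. Transcription factors then divide the plate from front to back. SIX3 and PAX6 act in the forebrain and eye field, OTX2 marks the forebrain and midbrain, the engrailed proteins EN1 and EN2 span the midbrain-hindbrain boundary, GBX2 lies just behind it, and EGR2, also called KROX20, sets up rhombomeres in the hindbrain. DNMT3B is one of the enzymes that places new methyl groups on CpG dinucleotides after implantation. A whole embryo mixes all of these regions with non-neural tissue, so a lower level could come from fewer cells of a type or from less RNA in each cell, and these cannot be told apart here.

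CpG sites are the substrate of DNMT3B, and the sequences ahead of the genes are rich in them. The authors report, however, that CpG-rich sequences are largely protected after implantation, and that those at gene starts rarely become highly methylated. RefSeq start regions of the GRCm38.p6 build were available for 8 of the 10 genes and for 27025 genes in all. In the 250 bases before the listed start, the 8 genes held a median of 18.5 CpGs, against a median of 6 over all genes. At least 10 CpGs were present in 7 of the 8, against 38.2% of all genes. The exception was Otx2, with 6 CpGs. The windows of 4 genes whose RNA differed between the genotypes are printed below 5' to 3' on the strand of the gene, with every CpG in capitals.
Sox1, chr8:12395269-12395518, plus strand, 29 CpGs: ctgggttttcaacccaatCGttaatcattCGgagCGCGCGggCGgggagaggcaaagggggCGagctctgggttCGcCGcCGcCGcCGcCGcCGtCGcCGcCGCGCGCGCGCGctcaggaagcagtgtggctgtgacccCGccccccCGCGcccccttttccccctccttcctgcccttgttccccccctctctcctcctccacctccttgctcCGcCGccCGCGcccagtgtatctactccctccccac
Sox2, chr3:34649745-34649994, plus strand, 27 CpGs: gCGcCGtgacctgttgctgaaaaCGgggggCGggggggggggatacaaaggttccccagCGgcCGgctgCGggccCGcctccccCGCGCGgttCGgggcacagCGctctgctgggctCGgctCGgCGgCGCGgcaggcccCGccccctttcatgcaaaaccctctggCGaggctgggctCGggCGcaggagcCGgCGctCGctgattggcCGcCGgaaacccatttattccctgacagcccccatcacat
Pax6, chr2:105668646-105668895, plus strand, 15 CpGs: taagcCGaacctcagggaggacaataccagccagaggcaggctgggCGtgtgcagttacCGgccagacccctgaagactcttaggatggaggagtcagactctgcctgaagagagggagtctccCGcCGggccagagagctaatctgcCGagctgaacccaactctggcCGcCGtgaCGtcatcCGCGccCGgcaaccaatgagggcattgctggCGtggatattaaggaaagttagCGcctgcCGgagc
Six3, chr17:85620584-85620833, plus strand, 10 CpGs: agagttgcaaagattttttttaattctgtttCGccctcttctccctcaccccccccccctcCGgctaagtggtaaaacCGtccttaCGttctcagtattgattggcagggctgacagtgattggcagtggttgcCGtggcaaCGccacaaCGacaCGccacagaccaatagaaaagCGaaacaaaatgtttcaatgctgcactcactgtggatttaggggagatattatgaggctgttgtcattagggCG
More CpGs stood ahead of Sox1 than ahead of 93.6% of all genes, and ahead of Sox2 than ahead of 91.8%. The windows of Pax6 and Six3 were closer to the middle, at 72.5% and 61.8%. The Six3 window lies inside the annotated span of the gene, ahead of the start that RefSeq lists for it. Both genes with the most CpGs changed, but in opposite directions, as described next. Egr2 was close behind, with 26 CpGs, more than ahead of 90.7% of all genes, and its RNA was not called different. The letters CCAAT, searched on both strands, were in 5 of the 8 windows and in 34.5% of all windows. The letters ACAAAG, a core recognized by SOX proteins, were found on either strand only in the Sox2 window among the 8, and in 16.5% of all windows. TATAAA was absent from the last 50 bases of all 8 windows and present there in 2.88% of all windows. Sox3 and En2 are named only. Methylation of these windows was not measured in the libraries used here.

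The libraries held between 41489332 and 58470286 counts on genes, so that 3 counts, the limit of detection used here, correspond to 0.049 to 0.073 CPM (TMM-scaled counts relative to library size). Every one of the 10 genes was far above this limit, and the lowest count was 44, for Six3. Dnmt3b itself fell in the mutants. Its level was 151, 291 and 131 CPM in the WT embryos and 84.7, 94.6 and 98.8 CPM in the Dnmt3b-/- embryos, a log2 fold change of -1.04 (SE 0.27, adjusted p = 0.0169 by edgeR). The Dnmt3b count covers all exons, including any that the inactive alleles lack, so the remaining reads do not measure intact transcript. Markers of extraembryonic yolk sac endoderm (10 genes) set WT embryo 2 apart. Their summed level was 3857 CPM in that library against 1222 and 453 CPM in the other WT embryos and 249 to 889 CPM in the mutants. The library also stood apart in genes outside this list, of which 4 are named after their values were seen. Pou5f1, a pluripotency gene, was at 17.4 CPM against 1.48 and 1.43 CPM in the other WT embryos, and the caudal gene Cdx1 at 40.97 against 10.3 and 7.90 CPM. The embryonic globin gene Hbb-y was at 9.37 against 240 and 324 CPM, and the neural gene Zic1 at 1.10 against 14.9 and 16.9 CPM. Values without WT embryo 2 are therefore given where they matter, and the part of these differences in the results was not tested.

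Of the 10 genes, 3 were higher in Dnmt3b-/- embryos (Sox1, Pax6 and Six3) and 2 were lower (Sox2 and Sox3) at an adjusted p below 0.05 by edgeR's quasi-likelihood test. The other 5, which include the 3 midbrain-hindbrain boundary factors among the 10 (En1, En2 and Gbx2) and the rhombomere gene Egr2, did not pass. The same 5 genes that passed were those whose 3 mutant embryos all lay beyond the 3 WT embryos. Over all 15114 tested genes, 17.6% were called higher and 18.1% lower (35.7% in all). The 3 mutant embryos lay above the 3 WT embryos for 25.3% of genes and below them for 26.5% (51.8% in all), so the 5 of 10 genes with groups apart are near the background. The median log2 fold change of the 10 genes was 0.40, against -0.03 over all tested genes. Only Six3 exceeded a fold of 2, a size reached together with the adjusted p by 5.9% of all genes, 2.12% higher and 3.78% lower. The p-values set the difference between genotypes against the spread between these embryos, estimated with information shared across genes. Litter was not part of the fit.

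**Figure D1:**
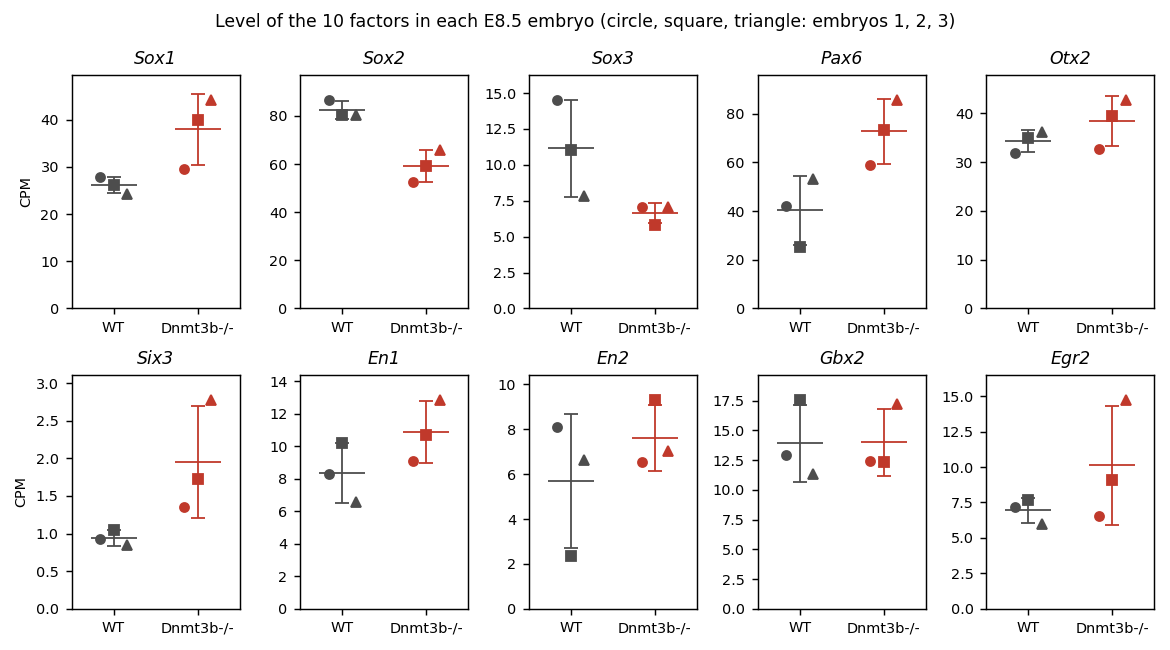
Level of each of the 10 factors in CPM (vertical axes, each from 0) in the 3 WT (grey) and 3 Dnmt3b-/- (red) E8.5 embryos. Points are embryos, long bars are means and whiskers are 1 SD. The groups stand apart for Sox1, Sox2, Sox3, Pax6 and Six3 and overlap for the other 5 genes.

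Per length of transcript, Sox2 was by far the most abundant of the 10 factors in both genotypes. In FPKM (CPM divided by the exon length in kilobases), WT embryos held 33.4 ± 1.51 of Sox2 and 12.7 ± 0.852 of Otx2 (SD, n = 3). Pax6 followed at 8.46 ± 2.96, Gbx2 at 6.56 ± 1.53, Sox1 at 6.48 ± 0.441 and Sox3 at 5.40 ± 1.63 FPKM. En1 stood at 3.27 ± 0.722, Egr2 at 2.02 ± 0.253, En2 at 1.60 ± 0.841 and Six3 at 0.255 ± 0.0280 FPKM. In this order the WT embryos of neighbouring genes did not overlap between Sox2 and Otx2, Otx2 and Pax6, En1 and Egr2, and En2 and Six3. Each pair of neighbours from Pax6 through En1, and Egr2 and En2, overlapped, so the order within these pairs is not settled. All WT embryos of Pax6, Gbx2 and Sox1 lay above all those of En1. In the mutants Pax6, at 15.3 ± 2.82 FPKM, took the second place ahead of Otx2 at 14.2 ± 1.90 FPKM, although these overlapped. By its mean, Sox1, at 9.40 ± 1.86 FPKM, moved ahead of Gbx2, although these overlapped in both genotypes. Sox3, at 3.22 ± 0.337 FPKM, dropped behind En1 with no overlap in the mutants.

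The SoxB1 genes, all single-exon genes that maintain neural progenitors, did not move together. Sox1 rose while Sox2 and Sox3 fell. Sox2 (chr3:34649995-34652461, GRCm38, plus strand) measured 86.8, 80.2 and 80.4 CPM in WT embryos 1, 2 and 3 and 52.3, 59.0 and 65.6 CPM in Dnmt3b-/- embryos 1, 2 and 3. All mutants were below all WT embryos, and the WT values were the tightest of the 10 genes, with a coefficient of variation of 4.51%. The log2 fold change was -0.48 (SE 0.09, 95% interval -0.69 to -0.27, adjusted p = 0.00496 by edgeR), a level of 0.715 of WT. Sox2 was called lower in all 16 alternative analyses, including every one with an embryo left out.

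Sox1 (chr8:12395519-12399555, plus strand), the SoxB1 member confined to the neuroectoderm at this stage, measured 27.9, 26.2 and 24.4 CPM in WT and 29.6, 39.9 and 44.3 CPM in mutant embryos. Mutant embryo 1 lay just above the highest WT embryo, and the other mutants lay well above it. Sox1 rose by a log2 fold change of 0.54 (SE 0.15, 95% interval 0.19 to 0.88, adjusted p = 0.0247 by edgeR), or 1.45-fold. With 1 embryo left out it kept its sign, at 0.42 to 0.70. The adjusted p by edgeR rose to 0.0712 without WT embryo 3, 0.0865 without Dnmt3b-/- embryo 2 and 0.0817 without Dnmt3b-/- embryo 3.

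Sox3 (chrX:60891366-60893430, minus strand), the X-linked member of the group, measured 14.5, 11.1 and 7.81 CPM in WT and 7.03, 5.84 and 7.06 CPM in mutant embryos. The WT embryos were spread widely (coefficient of variation 30.2%), the mutants were close together, and the lowest WT embryo was close to the highest mutant. Sox3 had a log2 fold change of -0.75 (SE 0.23, 95% interval -1.27 to -0.22, adjusted p = 0.0342 by edgeR). This call depended on the embryos used. Without WT embryo 1 the log2 fold change was -0.51 (adjusted p = 0.134 by edgeR), and without Dnmt3b-/- embryos 1, 2 and 3 in turn the adjusted p by edgeR was 0.0691, 0.12 and 0.0777. Xist, which is transcribed from the inactive X chromosome, was high in WT embryos 1 and 3 and mutant embryo 2 (306, 280 and 455 CPM) and at most 0.229 CPM in the other embryos. The WT embryo with low Xist had a Sox3 level between those of the WT embryos with high Xist, and the part of X-chromosome number in the Sox3 result was not tested.

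The Sox3 transcript also had an extreme base composition. Its exons are 66.4% G and C, above 99.7% of tested genes, and in these libraries fold changes moved with base composition. Genes called lower had a median exonic GC of 55.7%, those called higher 45.0%, and all tested genes 50.3%. With an offset for GC and length added to the fit, the log2 fold change of Sox3 was -0.01 (adjusted p = 0.985 by edgeR). Sox2, with exons of 52.0% GC, stayed lower at -0.45 (adjusted p = 0.0131 by edgeR), and Sox1, at 57.0% GC, rose further to 0.93 (adjusted p = 0.00693 by edgeR). How much of the GC trend is technical was not tested.

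The makeup of the SoxB1 pool differed accordingly. Sox2 supplied 71.6%, 73.3% and 76.9% of the summed FPKM of Sox1, Sox2 and Sox3 in WT embryos and 66.4%, 65.3% and 64.9% in mutants. The share was lower in every mutant than in every WT embryo. Group means were 73.9% ± 2.69 and 65.5% ± 0.764 (SD, n = 3), a difference of -8.38 percentage points (exact two-sided permutation p = 0.1, the smallest that 3 against 3 embryos allow). With the GC and length offset the difference was -15.2 points, and with each embryo left out it ranged from -9.54 to -6.90. The Sox1 share was larger in every mutant than in every WT embryo, at 25.6% ± 2.26 against 14.3% ± 0.297. The Sox3 share overlapped between the groups, at 11.8% ± 2.72 and 8.91% ± 1.55. The summed SoxB1 level was 45.3 ± 3.45 FPKM in WT and 36.5 ± 4.52 FPKM in mutants (SD, n = 3).

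**Figure D2:**
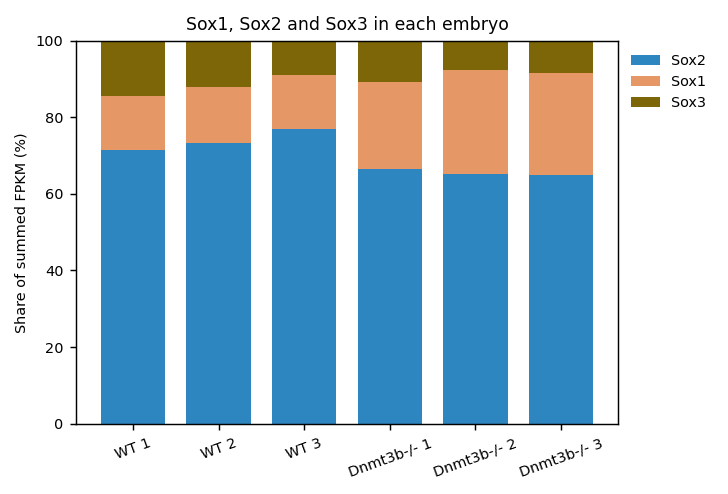
Share of the summed FPKM of Sox1, Sox2 and Sox3 (vertical axis, %) held by each gene in each of the 6 embryos (horizontal axis). The Sox2 share is 71.6% to 76.9% in WT and 64.9% to 66.4% in Dnmt3b-/- embryos, and the Sox1 share is 14.1% to 14.6% and 23.0% to 27.0%.

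Sox2 lies inside an intron of the long noncoding RNA gene Sox2ot, which was looked up after the values were seen. Sox2ot is on the same strand and shares no exonic base with Sox2. It measured 4.81, 3.86 and 6.27 CPM in WT and 6.99, 8.41 and 9.67 CPM in mutant embryos, and thus rose in the mutants where Sox2 fell (log2 fold change 0.74, SE 0.22, adjusted p = 0.0303 by edgeR). The noncoding gene that overlaps Sox1, listed under the older name Gm5607, did not pass (0.17, adjusted p = 0.651 by edgeR).

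In the forebrain and eye field, both factors rose. Pax6 (chr2:105668896-105698410, plus strand), which specifies the eye and dorsal forebrain and is also made in hindbrain and spinal cord, measured 42.2, 25.4 and 53.4 CPM in WT and 59.0, 73.5 and 85.8 CPM in mutant embryos. WT embryo 2 was the lowest by a wide margin, and the highest WT embryo was near the lowest mutant. Pax6 rose by a log2 fold change of 0.85 (SE 0.25, 95% interval 0.28 to 1.42, adjusted p = 0.0288 by edgeR), or 1.80-fold. Without WT embryo 2, the library that stood apart, it was 0.61 (adjusted p = 0.0196 by edgeR). The call was lost without WT embryo 1 or Dnmt3b-/- embryo 2 or 3 (adjusted p = 0.0691, 0.0852 and 0.0913 by edgeR) and with the GC and length offset (0.70, adjusted p = 0.0678 by edgeR). Pax6 shares 1091 exonic bases with Elp4 on the opposite strand, whose own log2 fold change was -0.05 (adjusted p = 0.724 by edgeR).

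Six3 (chr17:85613608-85626191, plus strand), a repressor that protects the most anterior forebrain from caudalizing signals, had the largest change and the lowest level of the 10. It measured 0.922, 1.05 and 0.845 CPM in WT and 1.35, 1.72 and 2.78 CPM in mutant embryos, from 44 to 56 reads in WT and 65 to 118 reads in mutants. The WT embryos were close together, and mutant embryo 3 stood above the other mutants. For Six3 the log2 fold change was 1.05 (SE 0.35, 95% interval 0.25 to 1.86, adjusted p = 0.0469 by edgeR), or 2.08-fold. It was 0.72 (adjusted p = 0.122 by edgeR) without Dnmt3b-/- embryo 3 and passed in only 1 of the 6 fits with an embryo left out, that without Dnmt3b-/- embryo 1 (1.27, adjusted p = 0.0275 by edgeR). The remaining adjusted p-values by edgeR were 0.132, 0.0616 and 0.131 without WT embryos 1, 2 and 3 and 0.0808 without Dnmt3b-/- embryo 2. Six3 also did not pass by edgeR with no filter or with total counts (adjusted p = 0.0544 and 0.0574), nor by limma-voom (adjusted p = 0.0624). With a replicate block, alone and with the GC and length offset, the adjusted p by edgeR was 0.107 and 0.101. The divergent noncoding gene Six3os1, on the opposite strand with no shared exonic base, had a log2 fold change of -0.03 (adjusted p = 0.947 by edgeR).

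Otx2 (chr14:48656781-48667644, minus strand), required for the forebrain and midbrain, did not pass. It measured 31.8, 34.9 and 36.2 CPM in WT and 32.7, 39.5 and 42.8 CPM in mutant embryos, and mutant embryo 1 lay within the WT range. The log2 fold change was 0.16 (SE 0.12, 95% interval -0.11 to 0.43, adjusted p = 0.327 by edgeR). Without Dnmt3b-/- embryo 1 it was 0.28 (adjusted p = 0.0772 by edgeR). The Sox1 estimate of 0.54 lay outside the Otx2 interval, but the Sox1 interval of 0.19 to 0.88 overlapped it. A difference between the 2 genes was not tested.

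**Figure D3:**
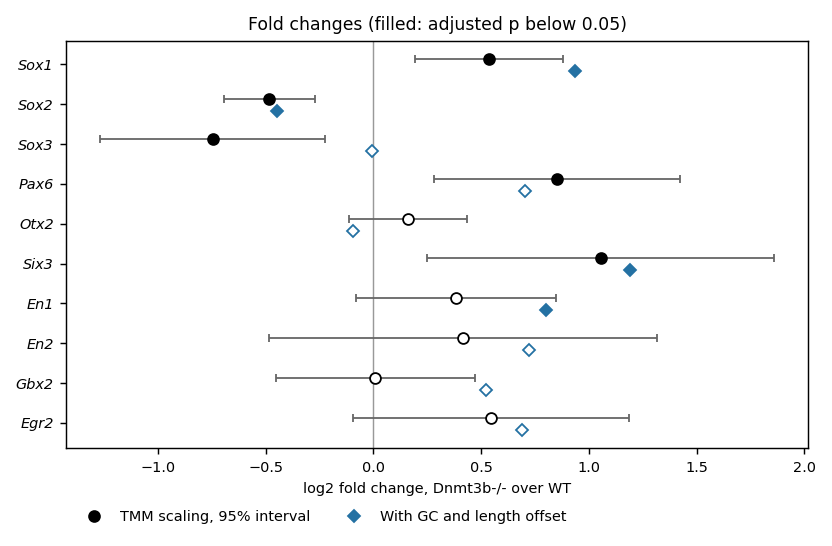
Log2 fold change, Dnmt3b-/- relative to WT (horizontal axis) for each of the 10 factors (vertical axis). Circles with bars are the fitted values with 95% intervals, diamonds are values with an offset for GC and length, and filled symbols have an adjusted p below 0.05. The offset takes Sox3 from -0.75 to -0.01 and En1 from 0.38 to 0.80.

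At the midbrain-hindbrain boundary, none of the 3 factors passed edgeR's test, nor had an unadjusted p below 0.05. En1 (chr1:120602487-120607991, plus strand), which maintains the boundary organizer, measured 8.29, 10.2 and 6.54 CPM in WT and 9.07, 10.7 and 12.9 CPM in mutant embryos. Only mutant embryo 1 was below the highest WT embryo. The log2 fold change was 0.38 (SE 0.20, 95% interval -0.08 to 0.85, adjusted p = 0.178 by edgeR). With the GC and length offset it was 0.80 and passed (adjusted p = 0.034 by edgeR), which makes the count of the 10 genes 3 higher (Sox1, Six3 and En1) and 1 lower (Sox2) under that offset, where 11% and 15.7% of all genes were called.

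The paralog En2 (chr5:28165696-28172190, plus strand) measured 8.10, 2.34 and 6.63 CPM in WT and 6.56, 9.31 and 7.01 CPM in mutant embryos. WT embryo 2 was far below the other 5 embryos, which overlapped. The log2 fold change of 0.42 (SE 0.39, 95% interval -0.49 to 1.32, adjusted p = 0.446 by edgeR) became 0.05 without that embryo. The log2 ratio of En1 to En2 was 0.03, 2.13 and -0.02 in WT and 0.47, 0.20 and 0.87 in mutant embryos (exact two-sided permutation p = 1 for the difference of -0.20).

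Gbx2 (chr1:89927962-89931176, minus strand), which opposes Otx2 to place the boundary, measured 12.9, 17.6 and 11.3 CPM in WT and 12.4, 12.4 and 17.3 CPM in mutant embryos. The groups covered the same range. The log2 fold change was 0.01 (SE 0.20, 95% interval -0.45 to 0.47, adjusted p = 0.979 by edgeR). With the GC and length offset it was 0.52 (adjusted p = 0.129 by edgeR), outside that interval. The log2 ratio of Otx2 to Gbx2 within each embryo was 1.30, 0.99 and 1.68 in WT and 1.4, 1.68 and 1.31 in mutants, with means of 1.32 ± 0.34 and 1.46 ± 0.19 (SD, n = 3; exact two-sided permutation p = 0.5). The difference of 0.14 turned to -0.61 with the offset and to -0.026 without WT embryo 2, so its direction is not settled here.

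In the hindbrain, Egr2 (chr10:67534469-67542188, plus strand), which defines alternate rhombomeres, measured 7.19, 7.65 and 5.97 CPM in WT and 6.53, 9.11 and 14.7 CPM in mutant embryos. Mutant embryo 3 was the highest by far, and mutant embryo 1 lay within the WT range. Egr2 had a log2 fold change of 0.55 (SE 0.28, 95% interval -0.10 to 1.19, adjusted p = 0.165 by edgeR). It was 0.19 without Dnmt3b-/- embryo 3 and 0.79 without Dnmt3b-/- embryo 1, where it passed (adjusted p = 0.0385 by edgeR).

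Mutant embryo 3 had the highest level of 6 of the 10 genes, Sox1, Pax6, Otx2, Six3, En1 and Egr2. WT embryo 3 had the lowest level of 5, Sox1, Six3, En1, Gbx2 and Egr2. Without Dnmt3b-/- embryo 3, or without Dnmt3b-/- embryo 2, none of the 10 genes passed as higher and only Sox2 passed as lower, by edgeR, while at an unadjusted p below 0.05 there were 3 higher and 2 lower in either case. Of all genes, 14% were then called higher and 13.4% lower without embryo 3, and 11.9% and 11.8% without embryo 2. Leaving out WT embryo 2 and Dnmt3b-/- embryo 3 together, a choice made after the values were seen, left Pax6 higher (0.47, adjusted p = 0.019 by edgeR) and Sox2 and Sox3 lower (-0.59 and -0.80, adjusted p = 0.00107 and 0.0401 by edgeR), beside 16.7% of all genes higher and 17.9% lower.

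**Figure D4:**
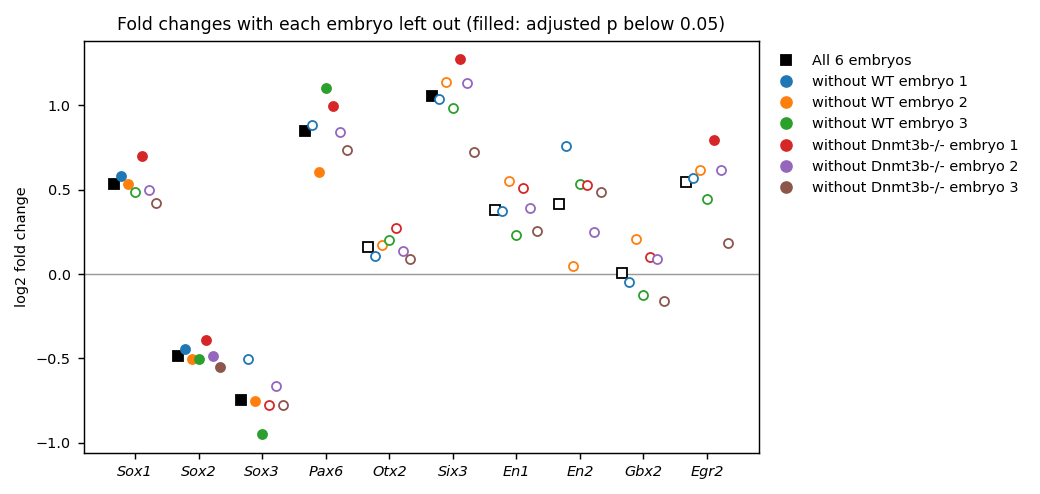
Log2 fold change, Dnmt3b-/- relative to WT (vertical axis) for each of the 10 factors (horizontal axis) with all 6 embryos (squares) and with each embryo left out in turn (coloured circles). Filled symbols have an adjusted p below 0.05. Sox2 is filled throughout and spans -0.55 to -0.39, while En2 spans 0.05 to 0.76.

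Other genes of the same brain regions were read from lists, to set the 10 factors beside their neighbours in the pathway. Like the 10 factors, the lists were chosen with earlier results of these data known. Each count below stands beside the 17.6% of all genes called higher and 18.1% called lower. Among 19 other forebrain and eye regulators, 3 rose and none fell by edgeR (lower also 0 at an unadjusted p below 0.05, with DESeq2 and with limma-voom). Nkx2-1, which specifies the ventral forebrain, measured 0.691, 0.453 and 0.717 CPM in WT and 1.37, 1.79 and 2.68 CPM in mutant embryos (log2 fold change 1.64, adjusted p = 0.0111 by edgeR). Otx1, the paralog of Otx2, rose from 3.14, 2.50 and 2.33 CPM to 5.27, 5.82 and 9.11 CPM (1.34, adjusted p = 0.00544 by edgeR). Emx2, a regulator of the dorsal forebrain, rose by 1.11 (adjusted p = 0.00446 by edgeR). All 3 mutants exceeded all WT embryos for these genes, and each passed in all 16 alternatives. Nr2f1, with the highest mean FPKM of the list but overlapping Nr2f2 in WT embryos, did not pass (0.41, adjusted p = 0.54 by edgeR). The list's median log2 fold change was 0.21, and 0.49 with the GC and length offset.

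Of 16 other midbrain and isthmus genes, 3 rose and none fell by edgeR (lower 2 at an unadjusted p below 0.05, 1 with DESeq2 and 0 with limma-voom), with a median of 0.27. Fgf18, a ligand made at the isthmus, rose from 4.21, 2.27 and 4.14 CPM to 7.45, 8.24 and 10.03 CPM (1.27, adjusted p = 0.00669 by edgeR). Spry1, an inhibitor induced by FGF signalling, rose by 0.60 (adjusted p = 0.0219 by edgeR), and the transcription factor gene Meis2 by 0.46 (adjusted p = 0.00741 by edgeR). Fgf18 passed in all 16 alternatives. Spry1 did not pass without Dnmt3b-/- embryo 2 or 3 (adjusted p = 0.061 and 0.0527 by edgeR), and Meis2 no longer passed with the GC and length offset (0.26, adjusted p = 0.0533 by edgeR).

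Of 21 other hindbrain genes, 5 rose and 1 fell, with a median of 0.18, and of 0.44 with the GC and length offset. The 5 became 1 with total counts and 2 with no filter. Nab1, a corepressor of EGR proteins, measured 26.4, 24.8 and 27.5 CPM in WT and 41.7, 48.4 and 51.3 CPM in mutant embryos (0.84, adjusted p = 0.00105 by edgeR). It passed in all 16 alternatives, while Egr2 itself did not pass. With WT embryo 2 and Dnmt3b-/- embryo 3 both left out, 3 of the hindbrain genes were higher and 2 lower. Cyp26c1, an enzyme that degrades retinoic acid, fell from 13.9, 13.7 and 12.9 CPM to 7.85, 7.88 and 7.86 CPM (-0.78, adjusted p = 0.002 by edgeR). The Cyp26c1 groups were tight and well apart, yet the log2 fold change was -0.11 (adjusted p = 0.527 by edgeR) with the GC and length offset.

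Among 23 other genes of the neural plate, 6 rose and 3 fell, with a median of 0.08. With the GC and length offset 4 were higher and 1 lower, and the median was -0.015. Zic2, a zinc finger gene of the dorsal neural plate, rose from 54.5, 59.2 and 42.9 CPM to 81.2, 107 and 134 CPM (1.04, adjusted p = 0.00365 by edgeR) and passed in all 16 alternatives. Hes3, a repressor of neuronal differentiation, fell by 0.99 (adjusted p = 0.0105 by edgeR), and Pou3f1, a POU-domain gene of early neural cells, fell by 0.85 (adjusted p = 0.0197 by edgeR). Neither decrease passed with the GC and length offset (-0.50 and -0.24, adjusted p = 0.13 and 0.499 by edgeR). Pou3f1 also did not pass without Dnmt3b-/- embryo 1 or 2 (adjusted p = 0.0598 and 0.0722 by edgeR). With WT embryo 2 and Dnmt3b-/- embryo 3 both left out, 9 of these genes were higher and 5 lower. Lin28a, with the highest mean FPKM of the list, did not pass (-0.15, adjusted p = 0.479 by edgeR).

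Of 14 tested genes of dorsoventral patterning, 1 rose and 1 fell. Shh, the ventral morphogen, rose from 10.2, 6.25 and 9.32 CPM to 13.9, 14.8 and 17.1 CPM (0.83, adjusted p = 0.0118 by edgeR). Msx1, a dorsal gene, fell by 0.56 (adjusted p = 0.0182 by edgeR), a call lost with the GC and length offset (-0.11, adjusted p = 0.613 by edgeR) and without Dnmt3b-/- embryo 2 or 3 (adjusted p = 0.0757 and 0.0557 by edgeR). Of 16 tested neurogenesis genes, 2 rose and 1 fell. Pou4f1, a marker of early sensory neurons, rose from 1.48, 0.835 and 1.64 CPM to 4.56, 4.39 and 5.84 CPM (1.89, adjusted p = 0.00227 by edgeR) and passed in all 16 alternatives. Elavl4, which encodes a neuronal RNA-binding protein, rose by 1.05 (adjusted p = 0.0193 by edgeR) and the Notch ligand gene Dll1 fell by 0.39 (adjusted p = 0.0277 by edgeR), and neither passed with the offset (0.49 and -0.16, adjusted p = 0.248 and 0.328 by edgeR). Elavl4 was also lost without Dnmt3b-/- embryo 1 (adjusted p = 0.0512 by edgeR), and Dll1 without WT embryo 1 or 3 or Dnmt3b-/- embryo 2 (adjusted p = 0.0571, 0.0914 and 0.104 by edgeR).

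Counts in the longer lists moved with single embryos. The higher genes of the hindbrain list numbered 1 without Dnmt3b-/- embryo 2 or 3, 2 without WT embryo 3 and 3 without WT embryo 1. Those of the neural plate list numbered 3 without Dnmt3b-/- embryo 3 and 9 without WT embryo 2, while the 3 higher forebrain genes numbered 3 with any embryo left out.

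**Figure D5:**
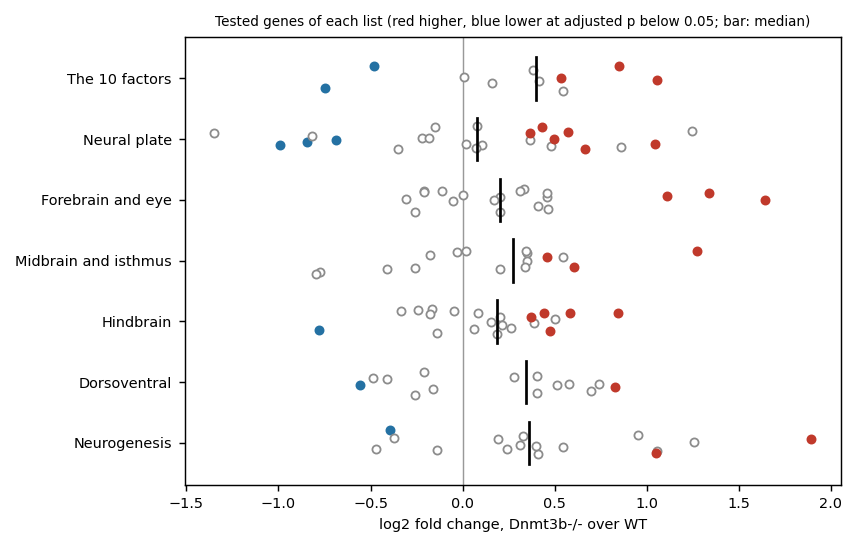
Log2 fold change, Dnmt3b-/- relative to WT (horizontal axis) for the tested genes of 7 groups (vertical axis). Each circle is a gene, red where higher and blue where lower at an adjusted p below 0.05, and the bar is the group median. The medians run from 0.08 for the neural plate to 0.40 for the 10 factors.

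The markers of other tissues were read in the same libraries. Neuromesodermal progenitor and caudal epiblast genes, from cells where Sox2 is also active, had none higher and 3 lower of 10 by edgeR (higher 0 at an unadjusted p below 0.05, 1 with DESeq2 and 0 with limma-voom). The decreases were Evx1 (-1.26, adjusted p = 0.0123 by edgeR), Wnt3a (-1.04, adjusted p = 0.00907 by edgeR) and Hes3, already counted in the neural plate list. Fgf17 and Sp8 also appear in the midbrain and forebrain lists, respectively. T, with the highest mean FPKM of the list, did not pass (0.47, adjusted p = 0.122 by edgeR). None of these 3 decreases passed with the GC and length offset. Their summed level overlapped between genotypes, at 231 to 404 CPM in WT and 226 to 369 CPM in mutants. Surface ectoderm and placode markers had 1 higher and 2 lower of 14, and their summed level did not overlap, at 555 to 789 CPM in WT and 394 to 483 CPM in mutants. Krt8 and Krt18 carried this separation. The other 12 markers summed to 164, 154 and 156 CPM in WT and 169, 172 and 206 CPM in mutants, apart in the opposite direction. The keratin genes Krt8 and Krt18 fell by 0.98 and 1.01 (adjusted p = 0.00969 and 0.0062 by edgeR). Without Dnmt3b-/- embryo 2 the adjusted p by edgeR was 0.0501 for Krt8 and 0.0533 for Evx1. The summed level of the 10 brain factors overlapped, at 217 to 241 CPM in WT and 217 to 300.2 CPM in mutants. The midbrain list (323 to 348 and 363 to 462 CPM) and the hindbrain list (543 to 586 and 590.1 to 699 CPM) were higher in every mutant. Neither separation held without the list's gene of highest FPKM. These were Meis2 (171, 139 and 163 CPM in WT and 199, 223 and 226 CPM in mutants) and Meis1 (94.9, 66.6 and 91.1 CPM and 112, 119 and 111 CPM). The forebrain (121 to 192 and 181 to 207 CPM) and neural plate (2740 to 2948 and 2938 to 3554 CPM) sums overlapped, as did the dorsoventral and neurogenesis sums. The part of tissue proportions in these results was not tested.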

How the data were processed

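RNA was measured in 6 whole E8.5 embryos, 3 WT and 3 Dnmt3b-/-, by RNA-Seq of ribosome-depleted total RNA. Per the labels and the submitters' processing notes, the authors aligned the reads to mm10 with TopHat2 2.0.12 and deposited raw counts per gene made with HTSeq 0.6.0, and the strand setting of the counting is not given in the sources used here. The deposited table also holds the authors' normalized signal, log2 fold changes and adjusted p-values from DESeq2 1.4.5, and these columns were not used.

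The counts were fitted with edgeR 4.0.16 (TMM scaling, quasi-likelihood test, genotype as the only term) in R 4.3.3. Genes averaging under 10 counts per library were left out, which kept 15114, and p-values were adjusted by Benjamini-Hochberg over all of them. A call is an adjusted p below 0.05. CPM were TMM-scaled, and FPKM were CPM per kilobase of RefSeq exon. The offset for GC and length was a natural spline with 5 degrees of freedom for exonic GC and for log2 length, fitted in each library, and 99.2% of genes in the table had both values. Ratios and shares were compared by exact permutation over embryos. The fits were tested on simulated data.

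The 10 genes and the 15 lists of other genes were chosen with earlier results of these data known. From each list the text names the gene with the highest FPKM and up to 3 called genes with the largest change. Some genes of the lists are not reported here. Alternatives were other filters, scalings and tools (DESeq2 1.42.0, limma 3.58.1), the offset, a replicate block and each embryo left out. Labels do not say which embryos shared a litter.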

Additional observations from a re-analysis of the deposited data

How the results depend on the processing

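The count of 3 higher genes among the 10 became 1 at a fold above 2 and 1 without WT embryo 2 and Dnmt3b-/- embryo 3, the latter chosen after seeing the data, became 2 with no filter, total counts or limma-voom, and ran from 0 to 4 with single embryos left out. The count of 2 lower genes became 1 with limma-voom, 1 with the GC and length offset and 0 at a fold above 2, and ran from 1 to 2 with single embryos left out. The median of 0.40 became 0.70 with the offset and 0.17 without WT embryo 2 and Dnmt3b-/- embryo 3, and ran from 0.22 to 0.52 with single embryos left out.

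The deviations of same-numbered embryos from their group means had correlations of -0.044, -0.141 and -0.015. Such deviations cancel within each group of 3 embryos, so this check does not settle whether embryos shared a litter. No label gives the replicate numbers as pairs, and they were not taken as pairs. With a replicate block, 1 gene was higher and 1 lower, beside 14.4% and 14.8% of all genes. With the block and the offset together, 2 were higher and 1 lower, the median was 0.68, and the log2 fold changes of Sox3 and Otx2 were 0.018 and -0.10.

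The difference of 0.14 in the log2 ratio of Otx2 to Gbx2 became -0.61 with the offset and ran from -0.026 to 0.32 with single embryos left out, the lowest without WT embryo 2. That of En1 to En2 ran from -0.57 to 0.51, the highest without WT embryo 2. The offset turned Otx2 to -0.094. Gbx2 turned to -0.0037 with no filter, to -0.071 with total counts, and to -0.05, -0.12 and -0.16 without WT embryo 1, WT embryo 3 and Dnmt3b-/- embryo 3, and ran from -0.16 to 0.21 with single embryos left out. The causes were not tested. Of 160 fold changes of the 10 genes under alternatives, 8 changed sign, and 28 of 80 calls were lost. Six3 rests on the fewest reads of the 10.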

Other observations

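Gene groups outside the nervous system were read from lists of tissue markers. The 8 tested erythroid markers summed to 254 to 1417 CPM in WT and 325 to 920 CPM in Dnmt3b-/- embryos. With all 6 embryos, none was called in either direction by edgeR, DESeq2 or limma-voom, and 0 had an unadjusted p below 0.05. Hbb-bh1, an embryonic globin gene, measured 478, 185 and 767 CPM in WT and 384, 282 and 131 CPM in mutants. WT embryo 2 was thus the lowest WT embryo. The log2 fold change of Hbb-bh1 was -0.84 (adjusted p = 0.229 by edgeR). It passed in 2 of 16 alternatives, 1 of them with an embryo left out. All 10 yolk sac endoderm markers had negative log2 fold changes (median -1.18, and -1.34 with the GC and length offset). WT embryo 2 was the highest of the 6 embryos for every one. Apoa1 measured 105, 388 and 54.3 CPM in WT and 155, 99.1 and 46.4 CPM in mutants, and kept its sign in 14 of 16 alternatives. Without WT embryo 2 the mean WT CPM was below the mutant mean for Apoa1 and Apoa2 and above it for the others. Of the 10 markers, 4 had an unadjusted p below 0.05 and 1 passed after adjustment by edgeR. That gene, Amn, which encodes part of an endocytic receptor complex, was at 8.71, 32.2 and 3.29 CPM in WT and 4.60, 1.70 and 0.942 CPM in mutants (-2.59, adjusted p = 0.0429 by edgeR). Its call was lost without WT embryo 1 or 2 or Dnmt3b-/- embryo 2 or 3 (adjusted p = 0.0563, 0.127, 0.143 and 0.136 by edgeR), and without WT embryo 2 the change was -1.31.

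Heart markers summed to 685 to 1180 CPM in WT and 756 to 1074 CPM in mutants, with 1 higher and 2 lower of 10. The higher gene was Tnnt2, which encodes cardiac troponin T (0.62, adjusted p = 0.0198 by edgeR), and it did not pass without WT embryo 1 or Dnmt3b-/- embryo 2 (adjusted p = 0.0588 and 0.0808 by edgeR). The lower genes were Nkx2-5, a cardiac transcription factor gene (-0.79, adjusted p = 0.0149 by edgeR), and Myl4, a myosin light chain gene (-0.69, adjusted p = 0.0486 by edgeR). Neither decrease passed with the GC and length offset. Nkx2-5 also did not pass without WT embryo 1 (adjusted p = 0.0577 by edgeR), nor Myl4 without WT embryo 1 or 3 or Dnmt3b-/- embryo 1 or 3 (adjusted p = 0.133, 0.141, 0.124 and 0.158 by edgeR). Of 10 paraxial mesoderm genes, 1 was higher, Tcf15, a somite transcription factor gene (1.14, adjusted p = 0.00601 by edgeR), which passed in all 16 alternatives. Of 10 gut endoderm genes, 1 was lower, Pyy (-1.25, adjusted p = 0.0191 by edgeR), and it did not pass with the offset, nor without WT embryo 1 or 2 or Dnmt3b-/- embryo 2 (adjusted p = 0.0823, 0.0551 and 0.061 by edgeR). Of 9 epiblast and pluripotency genes, 1 was higher, Dppa4, at 0.0329, 0.238 and 0.0919 CPM in WT and 0.895, 0.751 and 0.918 CPM in mutants (adjusted p = 0.011 by edgeR), where the lowest WT library had 2 reads. Of 6 tested decidua and trophoblast genes, Tfpi was higher (0.76, adjusted p = 0.00199 by edgeR), and 4 further genes of that list were at 0 in all 6 libraries.

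Over the 6 libraries, the genes whose log2(CPM + 1) followed Six3 most closely were Rad54b, Pdcd4 and Ube2k (Pearson r = 0.999, 0.997 and 0.996), and 490 genes exceeded 0.95. Those closest to Sox2 were BC029214, Rps28 and Fancg (0.997, 0.996 and 0.994), and 105 genes exceeded 0.95. The points share library depth and genotype, and the values are a description only.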
